A study of Homo sapiens with 12 samples.

Results

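Tubulin genes were followed in 2 human prostate cancer cell lines exposed to nicotine. The 10 genes are the alpha-tubulins TUBA1A, TUBA1B, TUBA1C and TUBA4A, the beta-tubulins TUBB, TUBB2A, TUBB3, TUBB4B and TUBB6, and the gamma-tubulin TUBG1. They were chosen by name, with the response of TUBA1A to nicotine in LnCaP already known, and 19 of the 22277 probe sets of the array list 1 of these symbols alone. A further probe set, 209372_x_at, is listed for TUBB2A and TUBB2B together and was kept apart. The 4 groups were untreated 22RV1, 22RV1 in 100 µM nicotine tartrate for 24 h, untreated LnCaP, and LnCaP in the same dose for the same time, with 3 replicates each and 12 arrays in all. Both lines are established cultures of prostate carcinoma, grown as their supplier advises, and the labels name no vehicle for the controls. Whether replicates were separate cultures is not given, so p-values measure only how far these arrays spread, and that spread may be technical. The comparison asks whether nicotine alone alters gene expression in prostate cancer cells.

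Microtubules are built from dimers of alpha- and beta-tubulin, and gamma-tubulin sits in the ring complex that starts their growth at the centrosome. Each tubulin exists as several isotypes from separate genes, which are much alike in their coding sequence and differ mainly in the carboxy-terminal tail that motors and modifying enzymes bind. TUBA1A and TUBB3 are known as isotypes of neurons, TUBB and TUBA1B are found in most dividing cells, and TUBB3 has been studied in carcinomas for its link to taxane resistance.

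The deposited values are log2 expression values per probe set, and all differences below are on that scale. The array medians lay between 6.61 and 6.71, and arrays of a group correlated at 0.992 or more. The 4 arrays numbered 3 stood apart, with 47.2% of the residual sum of squares. The 7 measured markers of prostate luminal epithelium, among them KLK3, KRT8, KRT18 and HOXB13, were above the array median on every array of both lines. Of 2 measured markers of basal epithelium and 3 of leukocytes, 0 were above it on all arrays of a line. Of 6 stroma markers, 2 were above it in each line, and their list mean ran from 5.67 to 6.24 in untreated and from 5.58 to 5.92 in treated LnCaP. Of 3 endothelial markers, 1 (VWF) was above it in LnCaP. The part of these markers in the results was not tested.

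The array does not keep all tubulins apart. Of the 19 probe sets, 13 end in _x_at, the array maker's mark for sets with probes that may also match other transcripts, 1 ends in _s_at, for a set shared by several transcripts, and 5 end in _at. All 5 probe sets of TUBA1B, both of TUBA1C, of TUBB3 and of TUBB4B, and 2 of the 3 of TUBB carry the _x_at ending, so values of these genes may hold signal of a close relative. TUBA4A, TUBB2A, TUBB6, TUBG1 and the remaining TUBB probe set carry the plain ending, and TUBA1A is read by the _s_at set alone, whose signal may likewise hold other transcripts. Probe sets of a gene share its RNA on each array and are not replicates.

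The windows around the RefSeq gene starts (250 bases before to 50 after, build GRCh38.p14) are shown for the 2 genes with positive nicotine differences in LnCaP, TUBA1A and TUBB6, for TUBG1, which had the most negative one, and for TUBA1B, a close relative of TUBA1A also on chromosome 12. All 10 genes matched the table, with 15 windows. Capitals mark CCAAT on either strand (ATTGG on the reverse) and TATATA on the gene's strand. The TUBA1A window is chr12:49189031-49189330 on the minus strand, that of TUBB6 is chr18:12307991-12308290 on the plus strand, that of TUBG1 is chr17:42609433-42609732 on the plus strand, and that of TUBA1B is chr12:49131346-49131645 on the minus strand.
TUBA1A: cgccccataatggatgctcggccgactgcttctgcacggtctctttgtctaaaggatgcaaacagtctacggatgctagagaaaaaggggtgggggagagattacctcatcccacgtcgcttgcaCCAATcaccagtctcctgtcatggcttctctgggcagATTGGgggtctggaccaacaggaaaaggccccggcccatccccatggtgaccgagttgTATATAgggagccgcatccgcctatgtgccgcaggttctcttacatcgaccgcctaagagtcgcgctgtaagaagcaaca
TUBB6: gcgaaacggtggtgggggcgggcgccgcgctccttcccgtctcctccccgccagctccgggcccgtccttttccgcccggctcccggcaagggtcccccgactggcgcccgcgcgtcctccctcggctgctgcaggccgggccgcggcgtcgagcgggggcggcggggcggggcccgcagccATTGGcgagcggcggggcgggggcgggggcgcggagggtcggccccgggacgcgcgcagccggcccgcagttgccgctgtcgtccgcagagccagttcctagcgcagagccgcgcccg
TUBG1: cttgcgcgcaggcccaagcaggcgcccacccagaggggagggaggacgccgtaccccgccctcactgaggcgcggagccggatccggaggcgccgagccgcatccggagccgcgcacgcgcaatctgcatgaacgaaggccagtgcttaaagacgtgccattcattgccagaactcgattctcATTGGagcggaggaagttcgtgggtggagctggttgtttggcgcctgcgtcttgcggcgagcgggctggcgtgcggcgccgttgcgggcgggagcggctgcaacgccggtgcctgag
TUBA1B: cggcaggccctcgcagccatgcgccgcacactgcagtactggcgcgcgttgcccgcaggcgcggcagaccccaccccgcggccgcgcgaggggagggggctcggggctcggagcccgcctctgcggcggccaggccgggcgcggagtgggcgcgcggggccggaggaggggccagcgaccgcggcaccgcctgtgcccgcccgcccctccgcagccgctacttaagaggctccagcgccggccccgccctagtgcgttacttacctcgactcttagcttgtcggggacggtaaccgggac
The TUBA1A window holds 2 CCAAT matches, which start 125 and 88 bases before the gene start, and TATATA 30 bases before it. It has 0 matches to GGGCGG, the GC box, on either strand, and a GC content of 55.7%. The TUBB6 window holds 1 CCAAT match and 6 GC boxes at a GC content of 81.3%, and the window of its other start, which is not shown, holds 0 of either. TUBG1 has 1 CCAAT match and 2 GC boxes, and TUBA1B has 0 CCAAT matches and 3 GC boxes at a GC content of 77.0%. Of all 35116 windows of this length, 34.6% hold CCAAT and 45.0% hold GGGCGG, counted on both strands, and 3.99% hold TATATA on the gene's strand. Whether these letters bear on the nicotine differences was not tested.

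In LnCaP, TUBA1A was higher and TUBG1 lower after nicotine, TUBB6 went the way of TUBA1A, and the remaining 7 genes had negative differences. This is the comparison by which the genes were chosen, so its values are given as a description. In bulk RNA, fewer cells of a kind and less RNA per cell cannot be told apart. Untreated LnCaP replicates 1, 2 and 3 read 8.35, 8.07 and 7.03 for TUBA1A, and the treated ones 9.25, 8.94 and 9.30. All treated arrays were above all untreated ones, and untreated replicate 3 was the lowest array. The difference was 1.35 ± 0.26 (SE, n = 3 per group), or 2.54-fold. Without untreated replicate 3 it was 0.95 ± 0.14.

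**Figure D1:**
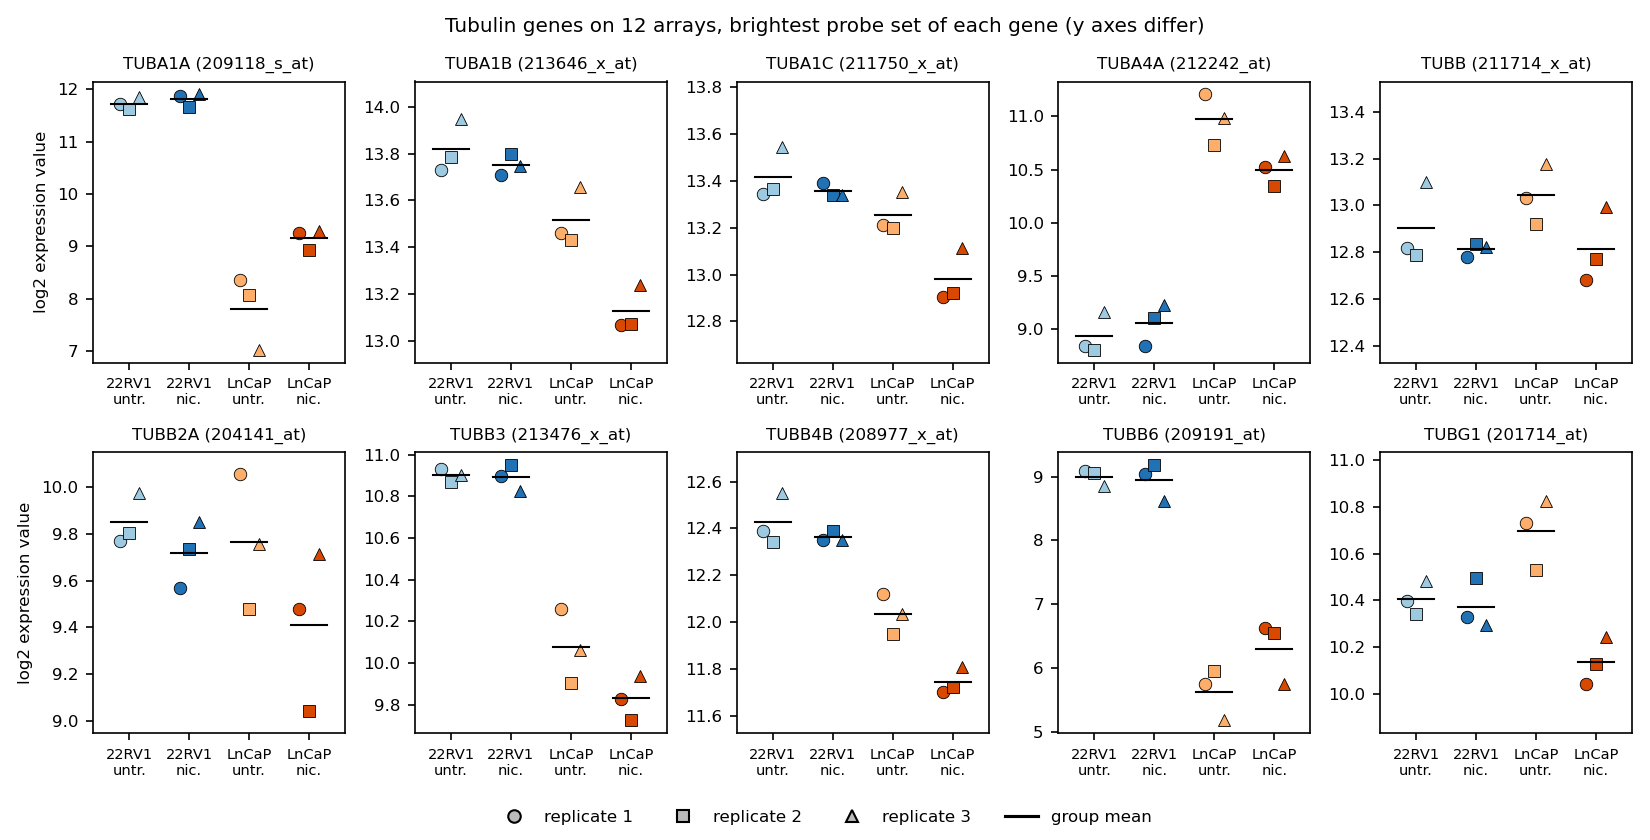
Log2 expression values (y axis, scaled per panel) of the brightest probe set of each tubulin gene on 12 arrays, by group (x axis; untr., untreated; nic., nicotine). Points are arrays, shaped by replicate number, and bars are group means. TUBA1A lies between 11.62 and 11.90 in 22RV1 and between 7.03 and 9.30 in LnCaP.

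TUBB6, a more divergent beta-tubulin, read 5.75, 5.95 and 5.19 in untreated and 6.63, 6.55 and 5.75 in treated LnCaP. The groups overlapped, and the arrays numbered 3 were the lowest of both. The untreated values lay below the lowest array median of 6.61, and without a detection call they may be background. The difference was 0.68 ± 0.24 (SE, n = 3 per group), and within same-numbered arrays it was 0.88, 0.60 and 0.56. TUBG1 read 10.73, 10.53 and 10.83 in untreated and 10.04, 10.13 and 10.24 in treated LnCaP. Every treated array was below every untreated one, and the difference was -0.56 ± 0.10 (SE, n = 3 per group), the most negative of the 19 probe sets.

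The other alpha-tubulins stood opposite to TUBA1A. TUBA4A, an isotype abundant in muscle and blood platelets, read 11.21, 10.73 and 10.98 untreated and 10.52, 10.35 and 10.63 treated, without overlap, a difference of -0.47 ± 0.14. The 5 probe sets of TUBA1B had differences from -0.42 to -0.39, and the 2 of TUBA1C, another ubiquitous alpha-tubulin, were at -0.30 and -0.28. For the brightest probe set of TUBA1B the untreated arrays read 13.46, 13.43 and 13.66 and the treated ones 13.07, 13.07 and 13.24. Groups did not overlap for any of these 7 probe sets.

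Of the beta-tubulins, TUBB4B had differences of -0.29 and -0.28 and groups apart at both probe sets. TUBB was at -0.35, -0.26 and -0.23, and only the probe set with the plain ending, 212320_at, had groups apart. TUBB2A was at -0.35 ± 0.17 and TUBB3 at -0.24 and -0.19, with overlapping groups. The shared probe set of TUBB2A and TUBB2B was at -0.16 ± 0.13.

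Of the 19 probe sets, 2 had positive and 17 negative differences in LnCaP, with a median of -0.30 against 0.0034 over all probe sets. The groups were apart for 13 of 19, against 15.3% of all probe sets. A moderated test (limma) was fitted to all 22277 probe sets, and a probe set passed at a Benjamini-Hochberg adjusted p under 0.05. TUBA1A and TUBG1 passed, 2 of 19, against 0.471% of all probe sets (0.112% higher and 0.359% lower). With a block for each numbered pair of a line, 9 passed, against 3.8% of all. TUBA1A and TUBB6 were the 2 higher ones, against 1.57% of all, and TUBG1, TUBA4A and the 5 probe sets of TUBA1B the 7 lower ones, against 2.23%. After quantile normalization or with each array centred on its median only TUBG1 passed, and with the LnCaP arrays fitted alone 0 did. Of all 22277 probe sets 71, 89 and 2 passed in these fits. The tubulin count was 3 without LnCaP nicotine replicate 3 and 0 or 1 without any other single array, against 1 to 134 of all. Without all arrays numbered 3 it was 2, TUBA1A and TUBB6, against 146 of all. The genes were chosen with these values known, so nothing is read from the counts.

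**Figure D2:**
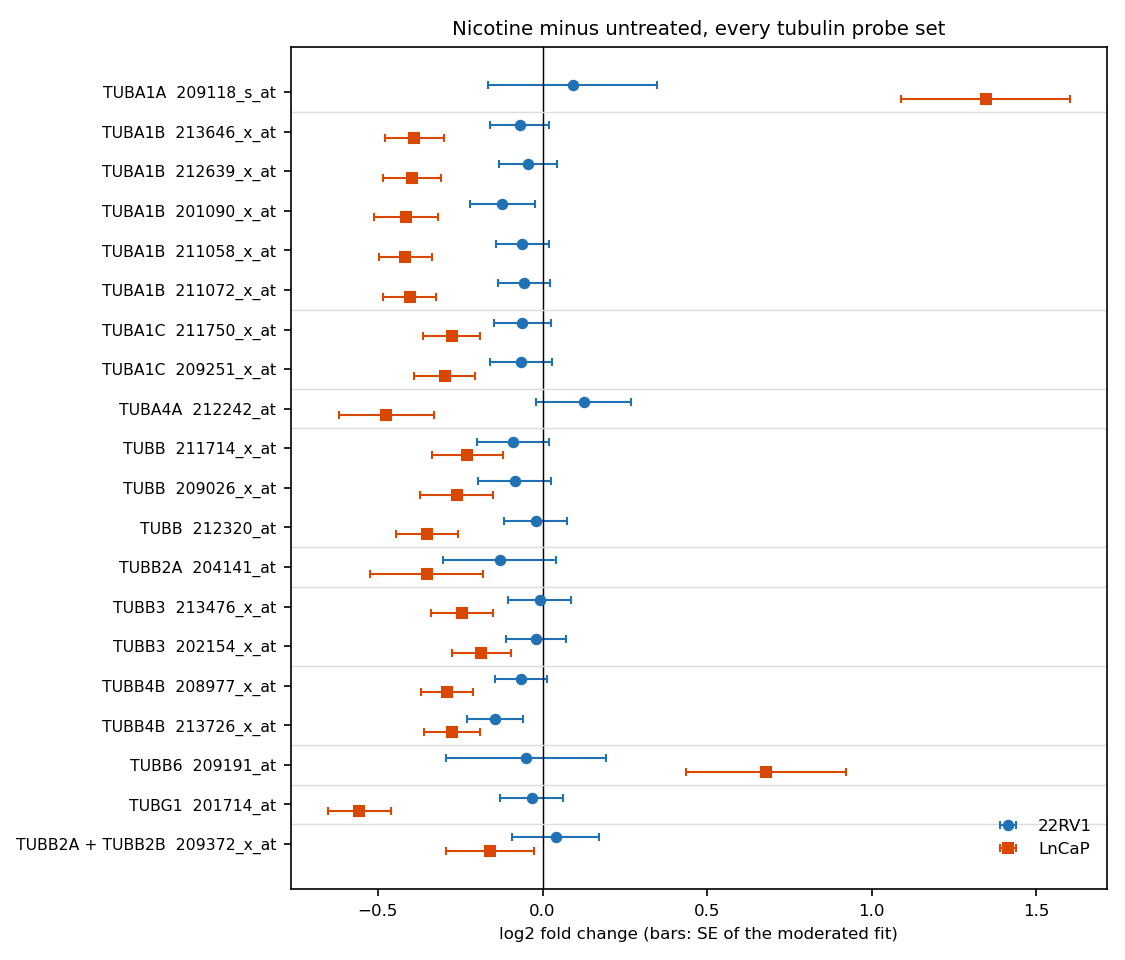
Log2 fold change of nicotine-treated against untreated arrays (x axis) for the 19 tubulin probe sets and the probe set listed for TUBB2A and TUBB2B (y axis), in 22RV1 (circles) and LnCaP (squares). Points are estimates and bars are SE of the moderated fit. In LnCaP TUBA1A is at 1.35 and TUBB6 at 0.68, and the others lie between -0.56 and -0.16, whereas 22RV1 values lie between -0.15 and 0.13.

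Same-numbered arrays were set against each other within each line. In LnCaP, TUBA1A differed by 0.90, 0.87 and 2.27 in pairs 1, 2 and 3, and TUBG1 by -0.69, -0.40 and -0.58. All 3 pairs had the sign of the group difference for each of the 10 genes at its brightest probe set. The pair numbered 3 was the highest by far for TUBA1A but lay within or next to the others for TUBB6, TUBG1 and TUBA1B. TUBB2A had -0.58, -0.43 and -0.045, so its pair 3 was close to 0.

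**Figure D3:**
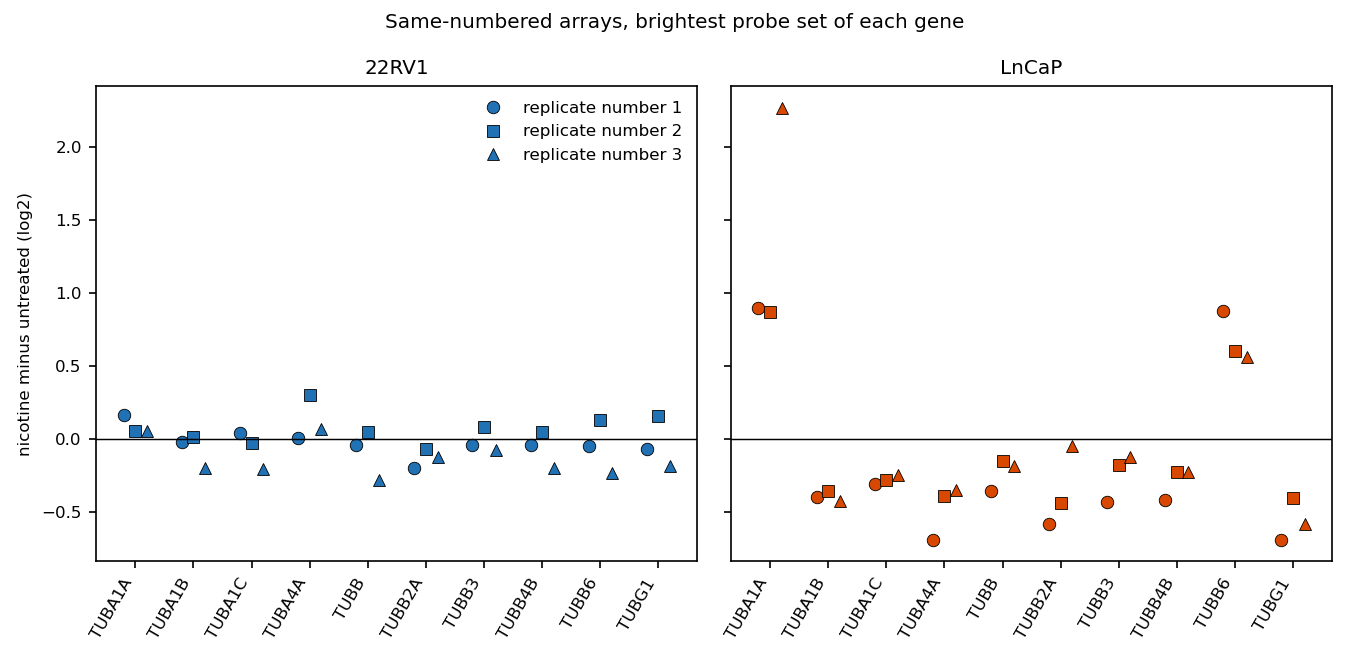
Nicotine-treated minus untreated log2 value of same-numbered arrays (y axis) for the brightest probe set of each tubulin gene (x axis), in 22RV1 (left) and LnCaP (right). Each point is 1 pair, shaped by its number. In LnCaP the 3 points of each gene lie on 1 side of 0, with TUBA1A pair 3 at 2.27.

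In 22RV1, no tubulin probe set passed after nicotine. This comparison was not the one by which the genes were chosen, but its arrays share the estimate of the spread. The count was 0 of 19 by limma, against 0% of all probe sets, with 0 of 19 at an unadjusted p under 0.05, against 5.15% of all. It was also 0 with the replicate block. TUBA1A read 11.72, 11.62 and 11.85 untreated and 11.88, 11.67 and 11.90 treated, and the groups overlapped. Its difference was 0.09 ± 0.26 (SE, n = 3 per group, limma adjusted p = 0.999), with a 95% confidence interval from -0.47 to 0.65. TUBG1 was at -0.03 (interval -0.24 to 0.18) and TUBA4A at 0.13 (interval -0.19 to 0.44).

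The 22RV1 differences of the 19 probe sets ran from -0.15 to 0.13, with a median of -0.06 against -0.0023 over all probe sets. Here too 2 were positive, TUBA1A and TUBA4A, and 17 negative. For TUBA1B the 5 probe sets lay between -0.12 and -0.04, and the narrowest interval was that of 211072_x_at, from -0.23 to 0.12. TUBB6 was at -0.05, with a wide interval from -0.58 to 0.48. The groups were apart for 1 of 19 probe sets, 213726_x_at of TUBB4B (-0.15 ± 0.09), against 11.3% of all.

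The effect in LnCaP minus that in 22RV1 holds the LnCaP values that chose the genes and is therefore a description. It was 1.25 ± 0.36 for TUBA1A, 0.73 ± 0.34 for TUBB6, -0.60 ± 0.20 for TUBA4A and -0.52 ± 0.14 for TUBG1 (SE, n = 3 per group). For TUBA1B it lay between -0.36 and -0.29. The test of the difference passed for 0 of 19 in limma, against 0% of all probe sets, and for 0 of 19 with the replicate block, against 0.247%. At an unadjusted p under 0.05 there were 8 of 19, against 6.08% of all.

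The lines differed in their isotypes without nicotine. Untreated LnCaP had far less TUBA1A and TUBB6 signal than untreated 22RV1, more TUBA4A, and less TUBB3 and TUBB4B. These comparisons share the untreated LnCaP arrays with the one that chose the genes. The TUBA1A difference, LnCaP minus 22RV1, was -3.91 ± 0.26 (SE, n = 3 per group, limma adjusted p = 1.363e-07), or 15.0-fold. All LnCaP arrays, at 7.03 to 8.35, lay below all 22RV1 arrays, at 11.62 to 11.85. Without LnCaP untreated replicate 3 the difference was -3.52.

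TUBB6 read 9.09, 9.05 and 8.85 in untreated 22RV1 and 5.75, 5.95 and 5.19 in LnCaP. The groups were far apart, with a difference of -3.37 ± 0.24 (limma adjusted p = 3.207e-07), or 10.3-fold. No detection call was used, and the LnCaP values lay below the lowest array median of 6.61. They may be background, and the size of the difference is uncertain. TUBA4A read 8.84, 8.81 and 9.16 in untreated 22RV1, and all LnCaP arrays, at 10.73 to 11.21, were higher. Its difference was 2.04 ± 0.14 (limma adjusted p = 2.614e-07), or 4.11-fold. TUBB3 was lower in LnCaP at both probe sets, by -0.82 ± 0.10 and -0.76 ± 0.09 (limma adjusted p = 1.76e-05 and 2.296e-05). The 22RV1 arrays read 10.93, 10.87 and 10.90 at the brighter of the 2, and the LnCaP arrays 10.26, 9.90 and 10.06.

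TUBB4B was lower at both probe sets (-0.41 and -0.39, limma adjusted p at most 0.001701). The 5 probe sets of TUBA1B were lower by -0.35 to -0.24 (adjusted p at most 0.03286), and TUBG1 was higher by 0.29 ± 0.10 (adjusted p = 0.02806). TUBA1C, TUBB and TUBB2A did not pass, with differences between -0.16 and 0.15. The probe set shared by TUBB2A and TUBB2B, which is not among the 19, was lower by -1.003 ± 0.13 (limma adjusted p = 5.472e-05). It thus differed from the probe set of TUBB2A alone. The interval of TUBB, the main beta-tubulin of dividing cells, was -0.10 to 0.38 at its brightest probe set. In all 13 of 19 passed, from 7 of the 10 genes, against 43.7% of all probe sets, with 2 higher (22.8% of all) and 11 lower (20.9% of all). The groups were apart for 13 of 19, against 52.3% of all. The count was also 13 with the replicate number as a block, against 48.1% of all, and 7 of 10 with 1 probe set per gene, against 47.8% of genes. It was 7 without LnCaP untreated replicate 1 and 8 without 22RV1 untreated replicate 3, against 8815 and 9301 of all 22277 probe sets. In both cases all 5 TUBA1B probe sets missed the threshold, as did 4 of them with arrays centred on their medians. The TUBG1 difference ranged from 0.22 to 0.37 over 21 alternatives and missed the threshold in 7 of them.

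**Figure D4:**
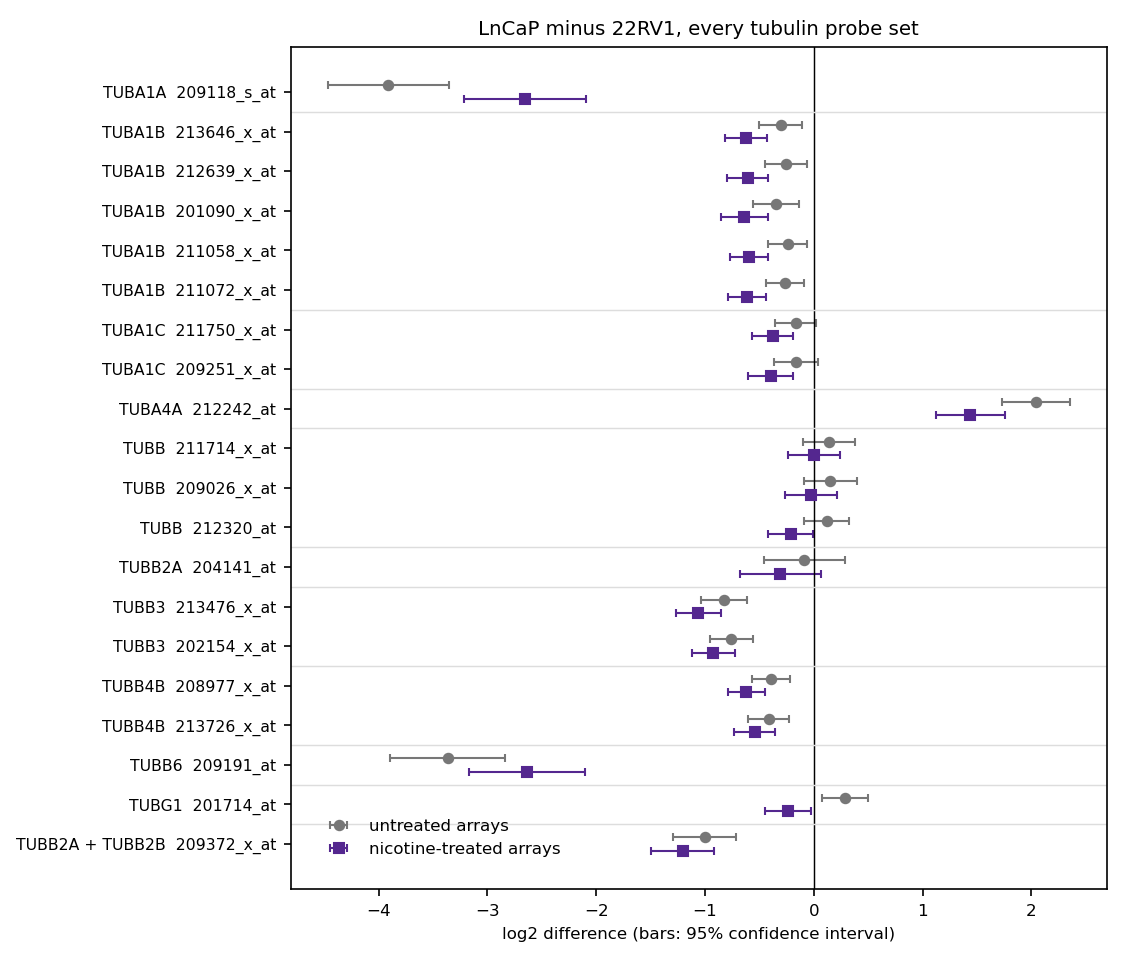
Log2 difference of LnCaP minus 22RV1 (x axis) for each tubulin probe set (y axis), among untreated arrays (circles) and among nicotine-treated arrays (squares). Points are estimates and bars are 95% confidence intervals. TUBA1A moves from -3.91 to -2.66 and TUBB6 from -3.37 to -2.64, whereas TUBA4A moves from 2.04 to 1.44.

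Among nicotine-treated arrays the lines again differed in these isotypes, with TUBA1A, TUBB6, TUBB3 and TUBB4B lower in LnCaP and TUBA4A higher. TUBA1A was lower in LnCaP by -2.66 ± 0.26 (SE, n = 3 per group, limma adjusted p = 3.384e-06), or 6.30-fold, and TUBB6 by -2.64 ± 0.24 (adjusted p = 2.347e-06). The treated LnCaP values of TUBB6, from 5.75 to 6.63, may be background, so the size of its difference is uncertain. TUBA4A was higher by 1.44 ± 0.14 (adjusted p = 4.656e-06). TUBB3 was at -1.06 and -0.92, TUBB4B at -0.62 and -0.54 and the 5 probe sets of TUBA1B between -0.64 and -0.60, and each passed. TUBA1C, which had not passed without nicotine, was lower at both probe sets (-0.40 and -0.38, adjusted p at most 0.003892). The probe set shared by TUBB2A and TUBB2B, already lower in LnCaP without nicotine, was at -1.20 ± 0.13 (limma adjusted p = 1.088e-05).

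TUBG1, higher in LnCaP without nicotine, was at -0.23 ± 0.10 with it and did not pass (limma adjusted p = 0.0644), although all treated LnCaP arrays, at 10.04 to 10.24, lay below all treated 22RV1 arrays, at 10.30 to 10.50. It passed under 7 of 21 alternatives. Passing probe sets numbered 14 of 19, against 46.2% of all, with 1 higher (23.8% of all) and 13 lower (22.4% of all). The groups were apart for 16 of 19, against 55.8% of all. The count was 14 with the replicate number as a block, against 50.6% of all, and 7 of 10 with 1 probe set per gene, against 49.9% of genes. The change of each gap equals the difference of nicotine effects given above, and no such difference passed.

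Markers of neuroendocrine cells also differed between the lines. Of 8 measured, 4 were above the array median on all 22RV1 arrays (ENO2, CHGB, SYP and SCG3) and 1, ENO2, on all LnCaP arrays. The mean of the list was between 6.28 and 6.70 over 22RV1 arrays and between 4.90 and 5.11 over LnCaP arrays. It was between 4.90 and 5.11 in untreated and between 5.04 and 5.09 in treated LnCaP. CHGB averaged 8.18 in untreated 22RV1 and 4.64 in untreated LnCaP, and CHGA 5.37 and 4.97. NCAM1 went the other way, at 5.37 and 5.70, and INSM1 was at 3.50 and 3.49. Their part in the TUBA1A and TUBB3 values was not tested.

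Other genes of the microtubule system were taken from 7 lists, each gene by its brightest probe set. Of 7 other measured tubulins, 0 passed after nicotine in either line, against 0.471% of all probe sets in LnCaP and 0% in 22RV1. In untreated cells 3 were higher and 2 lower in LnCaP, against 22.8% and 20.9% of all probe sets, among them TUBB2B, a neuronal beta-tubulin, at -3.99 ± 0.21 (SE, n = 3 per group, limma adjusted p = 1.655e-08). Its probe set also carries the _x_at ending. TUBB2B read 7.75, 7.35 and 7.19 in untreated 22RV1 and 3.69, 3.42 and 3.21 in untreated LnCaP. No detection call was used here, so the LnCaP values may be background and the size of the difference is uncertain. TUBB4A, also known from neurons, was higher by 0.68 ± 0.09 (adjusted p = 6.839e-05) and TUBD1, the delta-tubulin of centrioles, by 0.83 ± 0.13 (adjusted p = 0.0002018). TUBB4A averaged 4.14 in untreated 22RV1 and 4.82 in untreated LnCaP. Both lay below the lowest array median of 6.61 and may be background.

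Of 14 genes of the mitotic spindle, all measured, 7 fell and 0 rose after nicotine in LnCaP, against 0.359% lower and 0.112% higher of all probe sets. With the replicate block 12 fell, against 2.23% of all. The list median was -0.62, against 0.0034 over all probe sets. KIFC1, at -0.23, did not pass either test, nor did NUMA1, the only member with a positive value, at 0.14. With the LnCaP arrays fitted alone only 2 of all 22277 probe sets passed, so most of the 7 did not pass there. Leaving out 1 LnCaP array gave from 1 (nicotine replicate 2) to 134 (nicotine replicate 3) of all probe sets. KIF23, a kinesin of the central spindle, fell by 0.65 ± 0.09 (SE, n = 3 per group, limma adjusted p = 0.0197) and TPX2, a spindle assembly factor, fell by 0.56 ± 0.08 (adjusted p = 0.0197). In 22RV1 0 of 14 passed, against 0% of all, 13 had negative values, and the median was -0.24, against -0.0023 over all. In untreated cells 9 of the 14 were lower in LnCaP than in 22RV1 and 0 higher, against 20.9% and 22.8% of all probe sets.

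Lists for the other parts of tubulin biology held no gene that passed after nicotine in limma. In LnCaP, 0 of 20 folding and assembly genes, 0 of 14 modifying enzymes, 0 of 9 genes of the gamma-tubulin ring complex, 0 of 21 stabilising and plus-end proteins and 0 of 8 depolymerising and severing proteins passed. With 0.471% of all probe sets passing, a count of 0 in lists of this size says little. With the replicate block 3.8% of all probe sets passed in LnCaP, 1.57% higher and 2.23% lower. Of these lists, 2 of 8 depolymerising and severing proteins, 1 of 14 modifying enzymes and 1 of 21 stabilising and plus-end proteins passed. STMN1, the tubulin-binding stathmin, was at -0.61 (limma adjusted p = 0.117, and adjusted p = 0.00867 with the block). The depolymerising kinesin KIF2C was at -0.62 (adjusted p = 0.151, and adjusted p = 0.00726 with the block). The polyglutamylase subunit gene TTLL1 was at 0.37 (adjusted p = 0.198, and adjusted p = 0.0256 with the block) and MAP1B, a neuronal microtubule-associated protein, at 0.90 (adjusted p = 0.452, and adjusted p = 0.00463 with the block). In 22RV1 0 of the members of these 5 lists passed with or without the block.

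In untreated cells, 7 of the 14 modifying enzymes were higher and 2 lower in LnCaP. Of all probe sets 22.8% were higher and 20.9% lower in this comparison, and 43.7% passed. TTLL7 was higher by 1.68 ± 0.18 (SE, n = 3 per group, limma adjusted p = 7.559e-06), TTLL1 by 1.58 ± 0.11 (adjusted p = 3.06e-07) and TTLL12 by 1.18 ± 0.08 (adjusted p = 1.427e-07). TTLL1 and TTLL7 add glutamate to tubulin tails. Of the 8 depolymerising and severing proteins 0 were higher and 5 lower, among them STMN3 (-1.83) and STMN1 (-1.31). Of the 21 stabilising and plus-end proteins 3 were higher and 7 lower, against 22.8% and 20.9% of all probe sets. MAP2, a dendritic protein, had the smallest p among them (-2.78 ± 0.18, adjusted p = 1.249e-07).

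The genes whose values ran most like TUBA1A were named from Pearson's r over the 12 arrays after the mean of each line was removed, among 11962 genes. They were NPTN (r = 0.933, Spearman's rho = 0.832), CD63 (r = 0.919, rho = 0.846), GOLPH3L (r = 0.901, rho = 0.853), TOX3 (r = 0.899, rho = 0.720) and PIGZ (r = 0.895, rho = 0.713). The arrays share their line and replicate number, TUBA1A varied far more among LnCaP arrays than among 22RV1 arrays, and the likeness is a description. The nicotine differences of the 5 genes in LnCaP were 0.29, 0.23, 0.52, 0.80 and 0.55. The genes were picked for running like TUBA1A, so positive LnCaP values follow from the choice. In 22RV1 their differences were 0.03, 0.05, 0.23, -0.06 and 0.14. By the same measure TUBB6 had r = 0.656 and rho = 0.259, TUBA1B r = -0.846 and TUBG1 r = -0.853.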

How the data were processed

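The authors deposited a single log2 table of 22277 probe sets by 12 Affymetrix arrays, hybridised with biotin-labelled cRNA from TRIzol RNA, per the labels' protocols. Normalization and software were not given in the sources used here. That the values are log2 was read from their range. No probe set was filtered out. Precision is limited by the number of arrays. The median SE of a nicotine difference was 0.11.

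Symbols came from the platform annotation, where 19070 probe sets had 1 symbol, 1043 several, and 2164 were not listed, and 0 symbols changed when updated through the Entrez identifier. All 12 arrays were fitted by group means with limma 3.58.1 (R 4.3.3), with Benjamini-Hochberg adjustment over all probe sets within a contrast, called at 0.05, two-sided. The fit was checked on simulated data.

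The genes, lists and tests were chosen with earlier results of these data known. Named genes were all members, up to 3 genes of smallest p per list and contrast, and the 5 genes most like TUBA1A. Promoter windows came from a RefSeq table of GRCh38.p14.

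Replicate numbers come from the labels. Within a line, the deviations from group means of an untreated array and its same-numbered treated array correlated at 0.45, 0.42 and 0.63 in 22RV1 and at 0.36, 0.18 and 0.55 in LnCaP. All exceeded 0.1, so the number within a line was used for the pair differences and as the block of an alternative fit. SE, adjusted p and calls are from the unpaired fit unless the block is named. For TUBB6 in LnCaP the SE was 0.24 in the unpaired fit and 0.09 with the block. LnCaP untreated replicate 2 correlated more with treated replicate 1 (0.26) than with treated replicate 2. For contrasts between lines the number itself was the block.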

Additional observations from a re-analysis of the deposited data

Results flagged for a closer look

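TUBA4A (212242_at) was lower in the treated array of all 3 same-numbered LnCaP pairs, at -0.69, -0.39 and -0.35, and higher in that of all 3 22RV1 pairs, at 0.0060, 0.30 and 0.069. The first 22RV1 value is close to 0. The difference of the nicotine effects was -0.60 ± 0.20 (SE, n = 3 per group). It did not pass the test of the difference in limma (adjusted p = 0.685, and adjusted p = 0.123 with the replicate block). The LnCaP side of this difference belongs to the comparison by which the genes were chosen.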

How the results depend on the processing

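Each value was recomputed under up to 21 alternatives. No called value changed sign, and 38 of 2030 recomputed single values changed sign without a call on either side, all but 7 of them in the 22RV1 nicotine comparison. For nicotine in LnCaP, 2 probe sets passed in the fit as reported, 9 with the replicate block, 5 among probe sets above the median mean, 1 after quantile normalization, 1 with arrays centred on their medians, 4 with array weights, 8 with a trended, robust variance prior, and 0 with only the LnCaP arrays. Of all 22277 probe sets, 105 passed as reported, 847 with the block, 71 after quantile normalization, 89 centred, 165 with weights and 177 with the prior. Among the 11138 above the median mean 177 passed. With only the LnCaP arrays 2 of all passed, so the 0 there says little. Leaving out 1 array gave 0 to 3, against 1 to 134 of all probe sets. It was 0 or 1 where the array was of 22RV1, since all groups share the estimate of the spread. For the untreated lines, 13 became 7 with 1 probe set per gene, 9 with arrays centred on their medians (4 of the 5 TUBA1B probe sets missed the threshold), 10 with only the groups compared, 11 after quantile normalization, 12 without the arrays numbered 3, and 7 to 13 when 1 array was left out. For the treated lines, 14 became 7 with 1 probe set per gene, where 10 genes replace 19 probe sets, and 14 to 16 when 1 array was left out. In these between-line comparisons the replicate block left the counts at 13 and 14, against 48.1% and 50.6% of all probe sets. With 1 array left out, 8604 to 9911 of all passed for the untreated and 9167 to 10412 for the treated lines. For the untreated lines 10131 passed centred, 9116 with only the groups compared, 9874 after quantile normalization and 9655 without the arrays numbered 3. With 1 probe set per gene 5719 (untreated) and 5973 (treated) of 11963 genes passed. The nicotine count in 22RV1 and the count for the difference of effects were 0 under every alternative. Of all 22277 probe sets at most 8 and 55 passed in these comparisons. TUBA1A in LnCaP ranged from 0.88 without the arrays numbered 3 to 1.61 without untreated replicate 1, and it missed the threshold in 14 of 21 alternatives. TUBG1 in LnCaP ranged from -0.64 to -0.49 and missed it in 9 of 21. Without the arrays numbered 3 the 2 probe sets that passed were TUBA1A and TUBB6, both higher, and TUBG1 was at -0.54 (limma adjusted p = 0.0599). Values of TUBA1B, TUBA1C, TUBB3, TUBB4B and 2 of the 3 TUBB probe sets, which end in _x_at, and of TUBA1A, which ends in _s_at, may hold signal of other transcripts.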
